A study of Mus musculus with 8 samples.

Results

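Accessible chromatin was examined at 9 genes that encode partners, relatives and cofactors of the retinoid X receptors (RXRs): the orphan receptors Nr4a1, Nr4a2, Nr4a3, Nr1d1 and Nr1d2, the corepressor Ncor1 and the coactivators Ncoa1, Ncoa2 and Ncoa3. Every peak of the 8 peak lists that overlapped a gene body or its 20 kb flanks was taken (mm10, GENCODE M21), and peaks of different libraries that shared a base were merged. This gave 108 merged regions, of 82424 in the whole series. ATAC-seq, in which the Tn5 transposase inserts adapters into open DNA, had been run on alveolar macrophages (AMs) sorted from bronchoalveolar lavage. The 4 KO libraries (replicates 1_2, 1_3, 2 and 3) came from CD11cCre+ Rxrab fl/fl mice, in which Cre is driven by the CD11c promoter and deletes both floxed receptor genes in cells that express CD11c. The 4 WT libraries (replicates 1_2, 1_3, 3 and 4) came from CD11cCre- Rxrab fl/fl littermates, which carry the same floxed alleles without Cre. All mice were adult, on the C57BL/6J background. The labels do not tell if 1_2 and 1_3 are separate animals, so p-values measure only the spread between these libraries, which may be technical.

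RXRs act as heterodimers with other nuclear receptors and bind pairs of the half-site AGGTCA. Nr4a1 and Nr4a2 can pair with RXR, and each Nr4a receptor also binds DNA alone. Their genes are immediate-early genes, which are switched on within minutes by cAMP, calcium and inflammatory signals. Nr1d1 and Nr1d2 (REV-ERB alpha and beta) are repressors of the circadian clock that recruit NCoR1, the product of Ncor1. Clock activators drive both genes through E-boxes. NCoR1 brings histone deacetylase to unliganded receptors, whereas the p160 proteins encoded by Ncoa1, Ncoa2 and Ncoa3 (SRC-1, SRC-2 and SRC-3) bind liganded receptors and recruit acetyltransferases.

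The letters under these peaks are shown first for the motifs each gene group is known for. The cAMP response element was searched as its whole palindrome TGACGTCA on both strands within 100 bp of each summit, and none of the 99 member regions found in 2 or more libraries held it, compared with 0.95% of all 72711 such regions. Its core, TGACG, was then searched on both strands in the 250 bases before each start in the RefSeq promoter table (GRCm38.p6), a choice made after the palindrome had given no match. Of the 9 genes, 7 matched that table (8 entries). Nr4a1, Nr4a2 and Nr4a3 each held 4 copies of the core, a number reached by 45 of 32851 promoters (0.137%), and the entries of Ncor1, Nr1d1, Nr1d2 and Ncoa1 held 0. At least 1 copy was present in 17.8% of all promoters. The upstream sequences of the Nr4a genes are given with the core, on either strand, in capitals, 5′ to 3′ in the direction of transcription. That of Nr4a3 stops where the first GENCODE exon begins, before its last copy. A match of this kind describes the sequence and is not a binding site.
Nr4a1 (chr15:101266596-101266845, plus strand): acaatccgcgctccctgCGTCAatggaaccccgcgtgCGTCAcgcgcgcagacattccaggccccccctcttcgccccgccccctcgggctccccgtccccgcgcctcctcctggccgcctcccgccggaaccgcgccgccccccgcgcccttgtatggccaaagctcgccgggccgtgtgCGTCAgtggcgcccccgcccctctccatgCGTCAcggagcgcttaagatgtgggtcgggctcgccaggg
Nr4a2 (chr2:57124004-57124253, minus strand): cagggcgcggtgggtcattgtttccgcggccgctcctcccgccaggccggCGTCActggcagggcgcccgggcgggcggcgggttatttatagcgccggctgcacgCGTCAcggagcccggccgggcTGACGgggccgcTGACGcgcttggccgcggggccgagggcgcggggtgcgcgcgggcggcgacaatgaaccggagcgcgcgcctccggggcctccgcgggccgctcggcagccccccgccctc
Nr4a3 (chr4:48045055-48045152, plus strand): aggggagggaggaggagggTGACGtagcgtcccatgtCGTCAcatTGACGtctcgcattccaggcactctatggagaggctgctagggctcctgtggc

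RXR heterodimers with PPARγ, and RXR homodimers, bind DR1 elements, 2 half-sites spaced by 1 base. A DR1 match (AGGTCANAGGTCA, at most 2 mismatches, both strands) lay within 100 bp of the summit in 6 of the 99 member regions (6.1%), compared with 4.14% of all regions. Each is printed on the strand of the match, with the match in capitals and 8 flanking bases on each side. Only the match upstream of Ncoa2 was in a region whose accessibility was called different between genotypes (lower in KO, as were 7.03% of all regions tested). The match 3′ of Nr4a2 was in a region with a peak in 1 KO and 1 WT library, which was not tested. Only the match in Nr4a2 intron 7 had 1 mismatch. The other 5 had 2.
Nr4a1, intron 1 (chr15:101256960-101256988, plus strand): gtgcccttGGGGCAGAGGTCAggagcatg
Nr4a2, 3′ of the gene (chr2:57103266-57103294, minus strand): gagccacgAGGTCCAAGGTCTcatggacc
Nr4a2, intron 7 (chr2:57108549-57108577, minus strand): cctggctaTGGTCACAGGTCAgtactgct
Ncor1, upstream (chr11:62466726-62466754, minus strand): cgataactAGGTCTGAGGTAAaggaaatg
Ncoa2, upstream (chr1:13374434-13374462, plus strand): tccatgcgAGGGCAAAGGGCAatgcccaa
Ncoa3, upstream (chr2:165983218-165983246, minus strand): ccacaggaAGGGCAGAAGTCActgtctcc

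The E-box CACGTG, bound by CLOCK and BMAL1, lay in 5 of the 10 regions of the Nr1d1 window found in 2 or more libraries. In 2 copies, it lay in the promoter region of Nr1d2. Of the 5, the region 20.45 kb downstream lay nearest to the start of Thra, and the one 13.71 kb upstream nearest to that of Msl1. Among all 99 member regions 7 held it (7.1%), the last in intron 1 of Ncoa2, and among all regions of the series 5.35% did. The sites are printed with the E-box in capitals and 8 flanking bases on each side.
Nr1d1, 20.45 kb downstream of the start (chr11:98754824-98754845, plus strand): cccatggcCACGTGccatcttg
Nr1d1, intron 1, 2.26 kb (chr11:98773030-98773051, plus strand): tcctcagaCACGTGtgtgaggt
Nr1d1, intron 1, 1.26 kb (chr11:98774146-98774167, plus strand): aaatgcagCACGTGggcccggc
Nr1d1, 8.19 kb upstream (chr11:98783534-98783555, plus strand): gggtggggCACGTGgccctgcc
Nr1d1, 13.71 kb upstream (chr11:98789077-98789098, plus strand): caattgacCACGTGttaggggt
Nr1d2, intron 1, first (chr14:18238517-18238538, plus strand): accgccccCACGTGttcctccg
Nr1d2, intron 1, second (chr14:18238562-18238583, plus strand): cgcggcctCACGTGtctccgcc

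The lists held between 60363 and 72484 peaks. The fold and p of each peak give its summit tags, the number of 200-bp tag extensions stacked at a peak's summit. Over the 47499 regions found in all 8 libraries, the median was 57 to 68 tags in KO and 60 to 91 in WT, with WT replicate 1_3 the deepest, and the smallest summits listed had 6 to 9 tags. Promoter peaks were present in all 8 libraries at 8 of 9 AM or macrophage marker genes (Siglecf, Car4, Itgax, Marco, Pparg, Mrc1, Spi1 and Csf1r, but not Chil3). Among markers of other lung and blood cells, Ly6g, Cd3e, Cd3g, Cd79a, Sftpc and Cdh5 had no promoter peak in any library. S100a8, Epcam, Scgb1a1 and Pecam1 had one in all 8, at levels that did not pass the test between genotypes (adjusted p between 0.43 and 0.924, limma). Among the AM markers, the promoter of Itgax, which encodes CD11c, was higher in KO by 0.55 ± 0.10 (adjusted p = 3.83e-05, limma). Only the KO mice carry Cre under the CD11c promoter. A peak list cannot tell the gene's own promoter from a copy in such a construct. The part of either in this difference, and of this difference in the other results, was not tested. An intron of Rxra (chr2:27744546-27744950) had a peak in all 4 WT and 0 KO libraries, and no Rxrb region separated the genotypes in this way.

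At the 9 genes, most regions found in at least 2 libraries had a peak in all 8, a share near that of the series. Of the 108 regions, 9 had a peak in 1 library only and 99 in at least 2, and 69 of these (69.7%) had one in all 8, compared with 65.3% over the series. No member region was open in 4 libraries of one genotype and 0 of the other. Over the series this was seen at 0.285% of regions for KO and 0.820% for WT. At the 69 regions open everywhere, summit tags were compared between genotypes on the log2(tags + 0.5) scale, centred on each library's median, with limma fitted over all 47499 regions. There, 3 member regions were higher and 3 lower in KO (4.35% each, adjusted p under 0.05), against 5.81% and 7.03% of all regions tested. With libraries scaled by their genome-wide background in place of the median, the split was 0 higher and 1 lower (1 and 8 at an unadjusted p under 0.05), and 570 and 1931 over the series. The log2 differences, KO minus WT, ran from -0.59 to 0.46 with a median of 0.01, compared with a median of 0.04 over all regions. An unadjusted p under 0.05 was reached by 17 of the 69 (24.6%) and by 26.2% of all regions. ATAC-seq of sorted cells cannot tell a site open in fewer cells from a site less open in each cell.

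**Figure D1:**
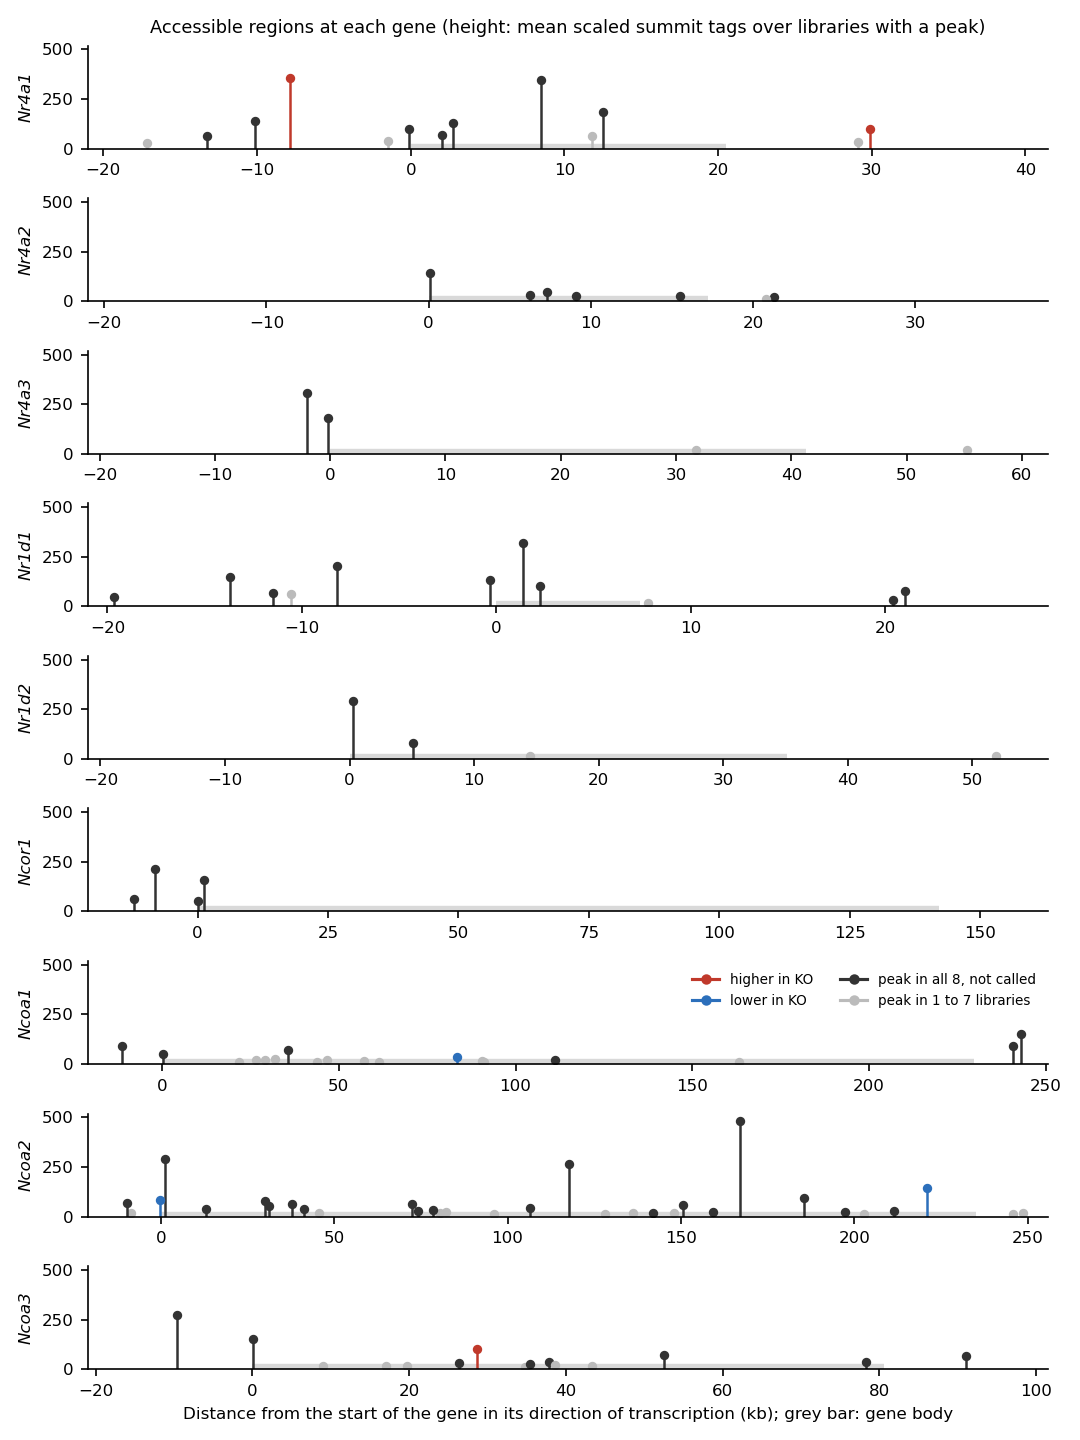
Each stem is 1 of the 108 merged regions, placed by its distance from the start of the gene in kb, with the mean scaled summit tags over the libraries that had a peak on the vertical axis. The grey bar is the gene body, red and blue mark the 3 regions higher and the 3 lower in KO, black the other regions with a peak in all 8 libraries and light grey those with a peak in 1 to 7. Ncor1 has its 4 regions near or upstream of the start, whereas Ncoa2 has 32 spread over the gene.

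**Figure D2:**
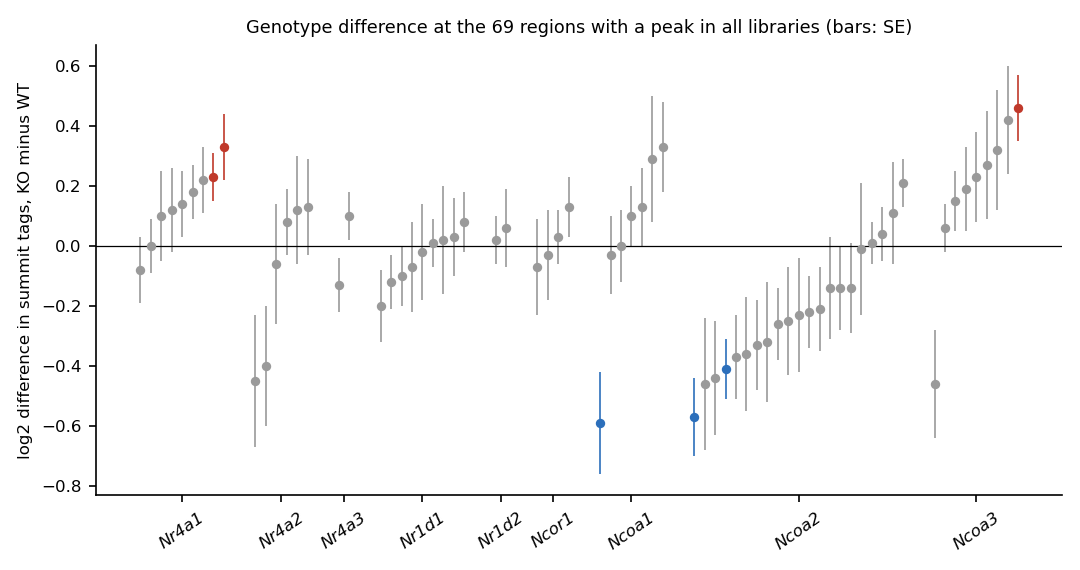
Log2 difference in summit tags, KO minus WT, with its SE at the 69 regions open in every library, ordered by size within each gene. Red and blue points passed the test. At Ncoa2, 17 of 21 points lie below 0, and at Ncoa3 8 of 9 lie above it.

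Nr4a1 (chr15:101254269-101274795, plus strand) encodes the Nur77 receptor. It had 13 regions, 9 of them in all libraries, and 8 of those 9 were above 0, whereas 42.4% of all regions tested were below it. The 8 take in an intron 2 region at 0.00 and the promoter of the neighbouring Atg101 at 0.33. The median log2 difference was 0.14, or 0.06 without WT replicate 1_3. Without WT replicate 1_2, or with replicates 1_2 and 1_3 joined, 3 of the 9 were below 0. An upstream element, 7.85 kb before the gene start (chr15:101246116-101246771), was among the strongest distal regions of the series (percentile 99.0 of those with a peak in all 8). In this and later lists, tags are listed in the order of the replicates above. The element had 387, 386, 329 and 312 tags in KO and 315, 409, 361 and 313 in WT. Scaled to library medians, every KO library (374.3 to 393.9) was above every WT library (307.3 to 356.7). The share of all regions at which the genotypes separate in this way is not given. This and later remarks on overlap therefore only describe the values. The difference of 0.23 ± 0.08 (log2, SE) passed the test (adjusted p = 0.0348, limma), but not when any one library other than WT replicate 4 was left out (0.20 to 0.24, adjusted p between 0.0603 and 0.115). It was also lost with background scaling, quantile normalisation, a stricter q, summed summits, an untrended prior and joined replicates (adjusted p up to 0.753).

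The Nr4a1 element of like strength in intron 2 (chr15:101262454-101263010) had 255 to 394 tags in KO and 349 to 404 in WT, with a difference of 0.00 ± 0.09. Nr4a1 has 2 open start regions. The one at the gene start (chr15:101253870-101254398) had 116, 97, 85 and 90 tags in KO and 93, 106, 115 and 92 in WT. The one at the downstream start (chr15:101266513-101266996), whose upstream letters are printed above, was higher, with 221, 188, 169 and 155 tags in KO and 169, 198, 208 and 170 in WT. In both, the genotypes overlapped on the scaled level, and the log2 differences were 0.14 ± 0.11 and 0.18 ± 0.09 (adjusted p = 0.448 and 0.206, limma). Just upstream of the latter, a region at chr15:101265917-101266189 had a peak in KO replicates 1_3 and 3 (61 and 49 tags) and in all WT libraries (74, 84, 72 and 56 tags).

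Beyond the 3′ end of Nr4a1, the window took in the promoter of Atg101, an autophagy initiation factor (chr15:101283789-101284462). It had 112, 100, 106 and 94 tags in KO and 81, 132, 95 and 80 in WT, and no scaled KO value overlapped WT. It was higher in KO by 0.33 ± 0.11 (adjusted p = 0.0426, limma), a call lost without KO replicate 1_2, 2 or 3 or WT replicate 1_2 or 3 (0.27 to 0.32, adjusted p between 0.0865 and 0.142) and under 7 other alternatives (adjusted p up to 0.528).

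Nr4a2 (chr2:57106830-57124003, minus strand), which encodes Nurr1, had 7 regions, 6 of them in all libraries, and 0 passed the limma test (2 of 6 at an unadjusted p under 0.05, against 26.2% of all regions). Its promoter region (chr2:57123412-57124449) had 147, 138, 118 and 138 tags in KO and 164, 176, 168 and 98 in WT, a difference of 0.08 ± 0.11. A further start within the gene (chr2:57114666-57115130) was weak, at 21 to 28 tags in KO and 16 to 49 in WT (-0.06 ± 0.20). The strongest distal region, in intron 1 (chr2:57116362-57117049), had 41 to 50 tags in KO and 33 to 60 in WT (0.13 ± 0.16).

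The lowest values of Nr4a2 were at 2 weak regions, the intron 7 site that carries the DR1 match with 1 mismatch and one beyond the 3′ end. The intron 7 site (chr2:57108388-57108687) had 20, 30, 17 and 15 tags in KO and 34, 43, 25 and 24 in WT (-0.40 ± 0.20), and the downstream site had 22, 25, 16 and 8 tags in KO and 24, 37, 25 and 21 in WT (-0.45 ± 0.22). Both had an adjusted p of 0.189 (limma), and scaled values of the genotypes overlapped.

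Nr4a3 (chr4:48045153-48086447, plus strand), which encodes NOR1, had 4 regions and 2 in all libraries. The region 2.23 kb upstream (chr4:48042639-48043737) had 312, 306, 285 and 261 tags in KO and 276, 415, 325 and 262 in WT, at percentile 98.1 of distal regions. Scaled KO values (312.3 to 324.8) lay just above WT (269.6 to 311.8), and the difference of 0.10 ± 0.08 did not pass (adjusted p = 0.44, limma). The promoter region (chr4:48044697-48045296) had 190, 168, 144 and 138 tags in KO and 179, 248, 221 and 166 in WT (-0.13 ± 0.09, adjusted p = 0.39). The 31.4 kb between the promoter region and a weak site in intron 7 had no peak in any library.

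The gene of REV-ERB alpha, Nr1d1 (chr11:98767932-98775333, minus strand), spans 7.4 kb and overlaps the 3′ end of Thra on the other strand. It had 11 regions, 9 of them in all libraries, with log2 differences between -0.20 and 0.08 and 0 calls (limma, 0 at an unadjusted p under 0.05). The strongest was in intron 1 (chr11:98773598-98774324), where one of the E-boxes lies, with 328, 287, 286 and 275 tags in KO and 327, 387, 367 and 280 in WT (0.01 ± 0.08). This was stronger than the promoter region (chr11:98775167-98776123), which had 138, 121, 97 and 117 tags in KO and 127, 165, 158 and 138 in WT (-0.10 ± 0.10). The E-box region 8.19 kb upstream (chr11:98783211-98783795) had 151 to 221 tags in KO and 183 to 276 in WT, and the one 13.71 kb upstream (chr11:98788832-98789249) had 134 to 142 and 136 to 167. Their differences were -0.12 ± 0.09 and 0.08 ± 0.10. The largest difference at Nr1d1 was at the other E-box of intron 1 (chr11:98772917-98773210), with 95, 94, 84 and 79 tags in KO and 96, 128, 130 and 119 in WT (-0.20 ± 0.12, adjusted p = 0.258, limma). The promoter of Msl1, at the edge of the window, had 35 to 56 tags in KO and 42 to 64 in WT (-0.02 ± 0.16).

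Nr1d2 (chr14:18204054-18239127, minus strand), the REV-ERB beta gene, had 2 regions in all libraries and 0 calls (limma, 0 at an unadjusted p under 0.05). The promoter region (chr14:18238158-18239553) had its summit in intron 1, 0.60 kb from the start and 2 bases from the first E-box printed above. It had 330, 277, 242 and 236 tags in KO and 315, 380, 306 and 243 in WT, a difference of 0.02 ± 0.08. The intron 1 region at 5.07 kb (chr14:18233869-18234238) had 81, 81, 72 and 68 tags in KO and 83, 120, 94 and 52 in WT (0.06 ± 0.13). In both, the genotypes overlapped.

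The corepressor gene Ncor1 (chr11:62316426-62458541, minus strand) was open only near its start. All 4 regions were found in every library, and the 140.4 kb from the promoter region to the 3′ end of the gene held no peak in any library. Counted over the gene body, this was 1.41 regions per 100 kb. Of 1291 genes at least as long as 100 kb with an open start, 248 (19.2%) had fewer, and the median was 4.07. The promoter region (chr11:62456847-62457877) had 180, 136, 143 and 145 tags in KO and 146, 177, 176 and 139 in WT (0.13 ± 0.10). The strongest distal region, 9.49 kb upstream (chr11:62466483-62467061), which holds a DR1 match and the PU.1 sequence GAGGAAGT, had 197, 226, 179 and 190 tags in KO and 226, 263, 232 and 181 in WT (0.03 ± 0.09). The region at the start of the neighbouring Pigl had 41 to 57 and 41 to 72 tags (-0.07 ± 0.16). No Ncor1 region passed the test (limma, 0 at an unadjusted p under 0.05), and the differences lay between -0.07 and 0.13.

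Of the called regions, 4 lay at the p160 coactivator genes. Higher in KO were 0 of 7 tested at Ncoa1, 0 of 21 at Ncoa2 and 1 of 9 at Ncoa3. Lower in KO were 1 of 7, 2 of 21 and 0 of 9. Over all regions tested, 5.81% were higher and 7.03% lower. The letters around these 4 summits, 30 bases on each side with the summit base in capitals, are printed on the plus strand. The region of Ncoa2 before the start held a DR1 and a DR5 match (AGGTCANNNNNAGGTCA, at most 2 mismatches, found in 2.52% of all regions), and in the other 3 none of the 9 motifs searched had a match within 100 bp.
Ncoa1, intron 2 (chr12:4393640-4393700, plus strand): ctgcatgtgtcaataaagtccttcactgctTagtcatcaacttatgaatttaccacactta
Ncoa2, intron 15 (chr1:13153347-13153407, plus strand): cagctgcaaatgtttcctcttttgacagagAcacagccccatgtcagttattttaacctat
Ncoa2, upstream (chr1:13374421-13374481, plus strand): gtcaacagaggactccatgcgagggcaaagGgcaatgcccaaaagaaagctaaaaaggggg
Ncoa3, intron 1 (chr2:166021232-166021292, plus strand): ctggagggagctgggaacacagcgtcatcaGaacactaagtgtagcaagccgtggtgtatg

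Ncoa1 (chr12:4247362-4477182, minus strand) had 18 regions, but only 7 in all libraries, and its promoter region was weak. That region (chr12:4476260-4477605) had 56, 58, 43 and 58 tags in KO and 57, 59, 50 and 35 in WT, at percentile 20.2 of promoter regions with a peak in all 8 (0.33 ± 0.15, adjusted p = 0.16, limma). The called region lay in intron 2 (chr12:4393478-4393906), with 30, 26, 29 and 24 tags in KO and 40, 70, 55 and 34 in WT. Scaled KO values (26.5 to 33.0) were all below WT (38.7 to 52.6). Accessibility there was lower in KO by a log2 difference of -0.59 ± 0.17 (adjusted p = 0.0158, limma), the largest difference at the 9 genes. The call was lost without WT replicate 1_3 (-0.52, adjusted p = 0.0712) or WT replicate 3 (-0.53, adjusted p = 0.0697), and with background scaling (adjusted p = 0.0566). The strongest distal region, 11.43 kb upstream (chr12:4488279-4488838), did not differ beyond its spread, at 71 to 99 tags in KO and 83 to 105 in WT (-0.03 ± 0.13). The promoter of the neighbouring Cenpo had 127 to 156 and 135 to 193 tags (0.10 ± 0.10).

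Ncoa2 (chr1:13139105-13374083, minus strand) had 32 regions, 21 of them in all libraries, and 11.06 regions per 100 kb of gene body, more than in 85.7% of the long genes. Of the 21, 17 were below 0, compared with 42.4% of all regions tested, and the median log2 difference was -0.23. It was -0.16 without WT replicate 1_3, the deepest library, again with 17 of 21 below 0. Single regions mostly did not pass, with 2 called lower, 0 higher and 8 at an unadjusted p under 0.05 (limma, 26.2% over all regions).

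The called region upstream of the Ncoa2 start, 0.37 kb before it (chr1:13374278-13374633), holds the DR1 match, which begins 9 bases before the summit. It had 76, 58, 61 and 47 tags in KO and 90, 120, 108 and 96 in WT, so that every KO library was below every WT library before scaling and after it (56.4 to 76.4 and 87.9 to 109.4). The log2 difference was -0.57 ± 0.13 (adjusted p = 0.00138, limma), a fold of 0.67. It passed in all 19 alternatives, with adjusted p between 0.000797 and 0.0165. The adjacent promoter region (chr1:13372320-13373667), at a further start inside the gene, had 300, 257, 280 and 253 tags in KO and 302, 421, 262 and 265 in WT, with a difference of 0.04 ± 0.09 (adjusted p = 0.807, limma). The direct contrast between these neighbours was not tested.

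The other called region, in intron 15 (chr1:13152702-13153643), had 108, 138, 117 and 100 tags in KO and 200, 200, 186 and 132 in WT. Scaled KO values (108.6 to 140.8) did not overlap WT (150.3 to 195.4), and the difference was -0.41 ± 0.10 (adjusted p = 0.00472, limma). It passed whichever library was left out (-0.46 to -0.33, adjusted p up to 0.0453), but not with background scaling (adjusted p = 0.0713), summed summits (0.0767) or an untrended prior (0.0633).

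The strongest regions of Ncoa2 were not among those below 0. Intron 4 held the strongest (chr1:13206445-13207575), at percentile 99.9 of distal regions, with 497, 437, 430 and 414 tags in KO and 510, 600, 518 and 427 in WT (0.01 ± 0.07). An intron 2 region (chr1:13256146-13256724) had 277, 244, 262 and 266 tags in KO and 250, 326, 287 and 206 in WT (0.21 ± 0.08, adjusted p = 0.0994, limma). Among the weaker ones, the region 9.61 kb upstream (chr1:13383477-13383940) had 56, 73, 46 and 45 tags in KO and 75, 114, 69 and 73 in WT (-0.37 ± 0.14, adjusted p = 0.0727, limma). An intron 4 region (chr1:13214454-13214969), with a PU.1 match 4 bases before the summit, had 14, 16, 18 and 14 tags in KO and 32, 40, 23 and 13 in WT (-0.46 ± 0.22, adjusted p = 0.164).

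Ncoa3 (chr2:165992636-166073242, plus strand) had 15 regions, 9 of them in all libraries, and 1 of the 9 was called, higher in KO. A log2 difference below 0 was seen at 1 of the 9, compared with 42.4% of all regions tested, and the median was 0.23, or 0.11 without KO replicate 1_3. An intron 1 region, 28.62 kb from the start (chr2:166021061-166021494), had 123, 100, 92 and 108 tags in KO and 89, 98, 90 and 79 in WT. Scaled values were 102.1 to 129.6 in KO and 73.6 to 90.0 in WT, a difference of 0.46 ± 0.11 (adjusted p = 0.00454, limma) and a fold of 1.37. It passed in 18 of 19 alternatives, the exception being background scaling (0.40, adjusted p = 0.193).

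A second Ncoa3 region nearby (chr2:166018797-166019119) also showed no overlap of scaled values, with 36, 38, 33 and 31 tags in KO and 32, 38, 23 and 28 in WT, but its difference of 0.42 ± 0.18 did not pass (adjusted p = 0.118, limma). The promoter region (chr2:165992320-165993066) had 153, 178, 127 and 130 tags in KO and 140, 165, 165 and 140 in WT (0.15 ± 0.10), and the strongest distal region, 9.43 kb upstream with a DR1 match (chr2:165982492-165983399), had 237 to 265 and 258 to 315 (0.06 ± 0.08). The exception below 0 was in the last exon, in the 3′ untranslated part (chr2:166070713-166071126), with 37, 27, 25 and 20 tags in KO and 48, 62, 41 and 27 in WT (-0.46 ± 0.18, adjusted p = 0.0925, limma).

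**Figure D3:**
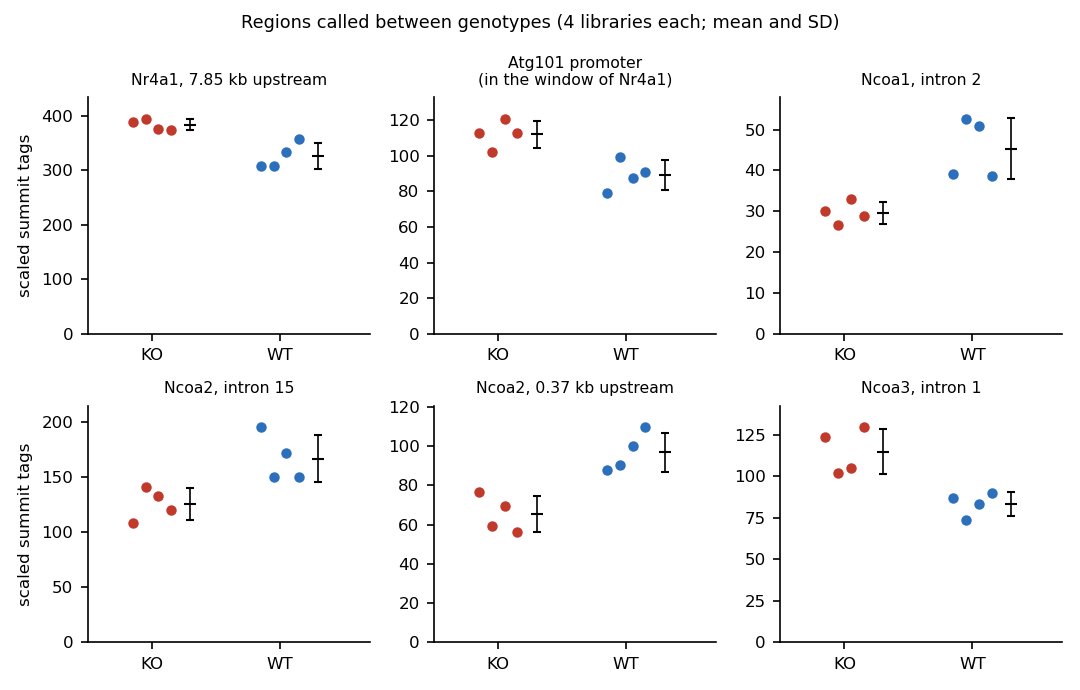
Scaled summit tags (tags divided by the library's median and multiplied by the mean of the 8 medians) of each library at the 6 called regions, with the mean and SD of each genotype beside the points. KO and WT points do not overlap in any of the 6 panels, which the choice of called regions favours, and the gap is widest in proportion at Ncoa2 upstream of the start and at Ncoa1.

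Compared by level, the promoter regions fell into steps. Summit heights are stacks of tags of 1 length and need no correction for gene length. The Ncoa2 promoter (scaled values 242.1 to 319.1 over the 8 libraries) and that of Nr1d2 (275.8 to 331.8) were highest and overlapped each other, at percentiles 89.2 and 89.0 of promoter regions. The Nr4a1 downstream start, Nr4a3, Ncor1, Ncoa3, Nr4a2 and Nr1d1 followed, and each overlapped its neighbours in this order, as did the Nr4a1 gene start and the upstream region of Ncoa2 after them. All libraries of the Nr4a1 downstream start (148.8 to 222.2) were below all those of the Ncoa2 promoter. The lowest were Ncoa1 (39.9 to 69.6) and the inner start of Nr4a2 (18.2 to 36.8), which did not overlap.

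**Figure D4:**
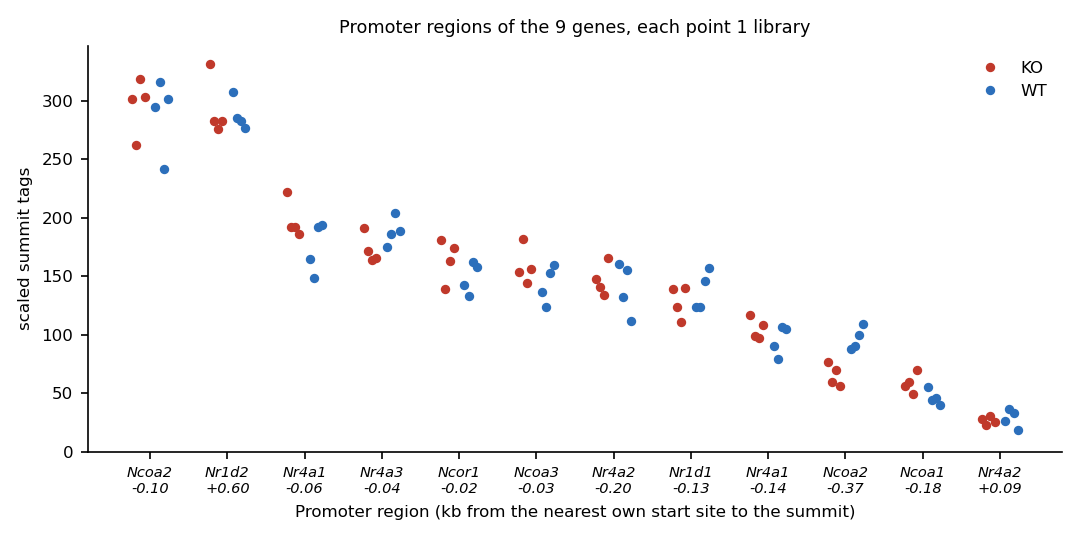
Scaled summit tags at the 12 promoter regions found in all 8, in descending order of their mean, with each point 1 library (red KO, blue WT) and the distance of the summit from the nearest start of the same gene under each name. The genotypes overlap at 11 of the 12, the exception being the Ncoa2 region 0.37 kb upstream. The share of all regions without overlap is not given, so this count only describes the points.

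Weak sites were found in some libraries only. Of the 99 regions, 30 had a peak in 2 to 7 libraries, with a median of 17.3 scaled tags, compared with 73.4 at the 69 others. A peak in 3 or 4 KO and at most 1 WT library was seen at 3 regions (2.03% over the series), and the reverse at 2 (5.05%). The first 3 were 1.46 kb upstream of Nr4a1 (chr15:101252665-101252925; 41, 40 and 38 tags in KO 1_2, 1_3 and 2, and 41 in WT replicate 1_3), Ncoa1 intron 1 (chr12:4445002-4445272; 19, 23 and 23 tags in KO 1_3, 2 and 3, and 37 in WT replicate 1_3) and Ncoa3 intron 1 (chr2:166001428-166001720; 12, 14 and 11 tags in the same KO replicates, none in WT). The other 2 were downstream of Nr1d1 (chr11:98767374-98767698; 15 tags in KO replicate 1_2, and 17, 22 and 16 in WT replicates 1_3, 3 and 4) and Ncoa2 intron 2 (chr1:13225826-13226176; 12 tags in KO replicate 3, and 21, 25, 14 and 18 in WT). A missing peak means that the threshold was not reached, not that the site was closed. All but the Nr4a1 and Ncoa1 values were at most 25 tags, near the 6 to 9 tags of the smallest peaks.

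**Figure D5:**
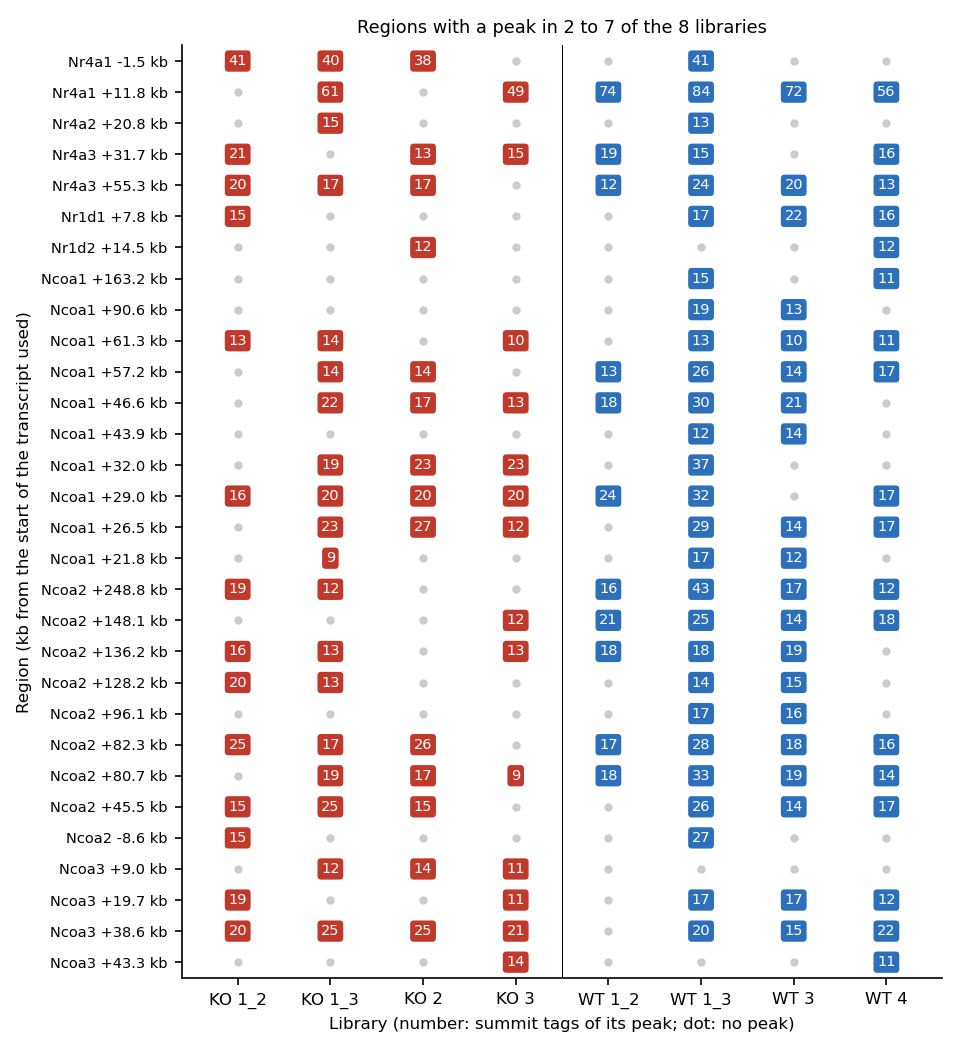
Each row is 1 of the 30 regions with a peak in 2 to 7 libraries, named by gene and distance from the start of the transcript in kb, and each column a library. Numbers are the summit tags of that library's peak and dots mark no peak. No row is filled in all libraries of one genotype and empty in the other, and WT replicate 1_3, the deepest library, is filled in most rows.

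Other genes of the same pathways were examined as lists in the same windows. Of the 77 tested regions of other coactivators and cofactors (13 genes), 3 were higher (3.9%) and 5 lower (6.49%) in KO, with a median log2 difference of 0.05. The clock list (15 genes) had 2 higher (2.53%) and 8 lower (10.13%) of 79, with a median of 0.04, and the list of other orphan receptors (13 genes) had 4 higher (8.51%) and 1 lower (2.13%) of 47, with a median of 0.06. Over all regions tested, 5.81% were higher and 7.03% lower. In these lists, promoters were called at 4 genes. Ncoa4, the ferritin receptor of autophagy, had 188, 163, 158 and 164 tags in KO and 133, 195, 157 and 142 in WT (0.33 ± 0.09, adjusted p = 0.0141, limma). An inner start region of Ncoa7 (chr10:30655528-30656060) was lower, with 45, 37, 39 and 44 tags in KO and 66, 99, 70 and 54 in WT (-0.56 ± 0.15, adjusted p = 0.00731, limma). It passed in all 18 alternatives run for it. The regions at the start of the Ncoa7 gene, chr10:30802653-30803536 and chr10:30803920-30804255, were not called (-0.04 ± 0.12 and 0.26 ± 0.13, adjusted p = 0.877 and 0.182, limma). Ciart, a clock repressor (0.33 ± 0.11, adjusted p = 0.0374, limma), and Esrra, the estrogen-related receptor alpha (0.28 ± 0.10, adjusted p = 0.0459, limma), were higher in KO. When 1 library was left out, Ciart passed only without KO replicate 1_3 or WT replicate 4 and Esrra only without WT replicate 1_2 or 4 (adjusted p otherwise up to 0.186 and 0.249). Ncoa4 was lost without KO replicate 3 or WT replicate 1_2 (adjusted p up to 0.0709).

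The other motifs searched are given with their share in the member regions and in all regions. The half-site AGGTCA was within 100 bp of the summit in 13 of 99 (13.1% against 15.11%), PU.1 GAGGAAGT in 11 (11.1% against 10.7%) and AP-1 TGANTCA in 8 (8.1% against 11.89%). The Nr4a monomer site AAAGGTCA was in 1 of 99 (1.0% against 1.52%), a weak region in intron 8 of Ncoa1 with a peak in 2 WT libraries only (15 and 11 tags). The RORE, the site that REV-ERBs share with ROR receptors, was in 0 of 99 (0.22% of all regions). These motifs overlap one another, since the half-site is part of the RORE, the monomer site and a DR1 without mismatches. A DR1 match with mismatches need not hold an intact half-site.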

How the data were processed

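Paired-end ATAC-seq reads had been trimmed with Cutadapt, aligned to mm10 with Bowtie2, filtered for duplicates and mapping quality, and given to MACS3 at a q-value of 0.05, with 1 list per library. In each deposited list the authors give a score (not used), the fold (a ratio to local background), −log10 p-values, −log10 q-values and the summit. A deeper library reaches the q threshold at lower enrichment, so occupancy moves with depth. Summit tags were worked back from fold and −log10 p, and whole tags gave back 100% of p-values within a relative error of 1e-05. The lists were not made for such comparisons. The study fitted edgeR to read counts, which the lists do not hold.

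Peaks were merged where they shared 1 base, with GENCODE M21 basic gene models. Log2(tags + 0.5), centred on library medians, was fitted with limma 3.58.1 (R 4.3.3; trended prior, no block, Benjamini-Hochberg adjustment over 47499 regions). The fit was tested on simulated data. Genes, lists, motifs and tests were chosen with earlier results of these data known. Regions were named if at a member's own promoter (summit within 1 kb of its start), called, one-sided, or the strongest distal site of a gene. Other regions were chosen after their values were seen. Alternatives changed the offset, scaling, filters, merging, window and prior, joined replicates 1_2 and 1_3, added a replicate block, and left out each library. Promoter sequences were from RefSeq and others from the GRCm38 genome. Percentiles rank mean scaled tags among regions with a peak in all 8 libraries. One list of corepressor genes and one marker gene are not reported here.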

Additional observations from a re-analysis of the deposited data

Results flagged for a closer look

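Within each genotype, the 4 libraries were compared at the 25 named regions that had a fit (50 sets of 4 libraries), and in 3 sets 1 library stood far from the other 3. Chance flags about 1 set in 20, so 3 of 50 is near what chance gives. At the Nr4a3 region 2.23 kb upstream, KO replicate 2 had 324.8 scaled tags (285 summit tags) and the other KO libraries 312.3 to 313.7. At the strongest Nr1d1 region, in intron 1, KO replicate 1_3 had 292.9 scaled tags (287 summit tags) and the others 325.9 to 329.9. At the Nr1d2 promoter region, KO replicate 1_2 had 331.8 scaled tags (330 summit tags) and the others 275.8 to 283.1. None of the 3 regions was called between genotypes, with or without these libraries.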

How the results depend on the processing

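Of the 25 named regions with a fit, the 19 not called stayed so under every alternative run, and of the 6 called ones 1, upstream of the Ncoa2 start, passed in all 19. No called region changed direction. The count of member regions higher in KO (3) was 0 with background scaling, 1 with quantile normalisation, 1 with summed summits, 1 with an untrended prior, 1 with replicates 1_2 and 1_3 as 1 sample, 1 within 2 kb of the genes, and 1 to 3 with a library left out. The count lower in KO (3) was 1 with background scaling, 5 within 50 kb, and 2 to 5 with a library left out (5 without KO replicate 1_3 or WT replicate 4). Over the series, 2759 regions were higher and 3337 lower. Background scaling gave 570 and 1931, an untrended prior 1662 higher, and leaving out a library 1823 to 3269 higher and 2624 to 3182 lower, with the fewest higher without KO replicate 3. Member regions found in 4 libraries of one genotype and 0 of the other numbered 0 in each direction. Counting replicates 1_2 and 1_3 as 1 sample gave 1 KO-only region, a −log10 q of at least 5 gave 1 WT-only region, and leaving out a library gave 0 to 1 of either, 1 KO-only without KO replicate 1_2 and 1 WT-only without KO replicate 3. The cause of these shifts was not tested.

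Replicates 1_2, 1_3 and 3 exist in both genotypes, but the numbers were not taken to pair the libraries: the deviations of same-numbered libraries from their group means correlated with r = 0.0555, 0.116 and 0.0368 over regions. Each of these pairs had the highest r of its KO library's 4 comparisons, a hint from the data and not from the design. With the replicate block on these 6 libraries, 2 member regions were higher and 7 lower (3608 and 3296 over the series), and without the block, a fit added after the data had been seen, 2 and 4 (2509 and 2763).

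Depth limits the weak sites: differences at regions under about 30 tags had SEs near 0.20, and peaks under 6 to 9 tags were not listed.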

Other observations

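Among the other nuclear receptor genes, the estrogen-related receptor gamma gene Esrrg stood out, named here after its values were seen. It encodes an orphan receptor best known for driving genes of mitochondrial metabolism. All 3 of its tested regions were higher in KO, by log2 differences of 1.35 ± 0.19, 1.60 ± 0.18 and 1.69 ± 0.19 (adjusted p = 5.76e-07, 9.66e-09 and 3.25e-09, limma), beyond any value at the 9 genes of the report. The region at chr1:187899519-187900059 had 122, 94, 70 and 76 summit tags in KO and 33, 52, 49 and 15 in WT, with no overlap. Each of the 3 passed in all 18 alternatives run for it, and 5.81% of all regions tested were higher in KO. One Esrrg start region (chr1:187997585-187997982) had 15, 13, 13 and 11 tags in the KO libraries and no peak in WT (0.285% of regions over the series). With this one, 7 of the 14 Esrrg regions found in 2 or more libraries had a peak in 3 or 4 KO libraries and at most 1 WT library. Over the series the share was 2.03%.

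Rora encodes the ROR alpha receptor, which competes with REV-ERBs for their sites. Its called regions went the other way, and it was also named after its values were seen. Of its 9 tested regions 4 were lower in KO (by -0.51 to -0.80) and 0 higher, against 7.03% and 5.81% of all regions tested. Its 2 promoter regions, chr9:69289552-69290043 and chr9:69290329-69290995, were not called (0.13 ± 0.09 and -0.17 ± 0.11, adjusted p = 0.375 and 0.347, limma). The region at chr9:69284108-69284677 had 87, 70, 54 and 60 tags in KO and 135, 158, 131 and 105 in WT (-0.75 ± 0.12, adjusted p = 5.36e-06, limma). It and the region at chr9:69304301-69304854 passed in all 18 alternatives, whereas those at chr9:69109497-69110170 and chr9:69319473-69320277 passed in 12 and 14 (the former lost without KO replicate 1_3, WT replicate 1_3 or 4, the latter without KO replicate 3 or WT replicate 1_3, with adjusted p up to 0.104 and 0.137). A region outside the clock gene Per1 (chr11:69114184-69114520) was also named after its values were seen. It had 55, 38, 37 and 30 tags in KO and 85, 110, 77 and 69 in WT (-0.88 ± 0.15, adjusted p = 2.1e-05, limma) and passed in all 18. Of the 8 regions tested in the Per1 window, this 1 was lower and 0 were higher, against 7.03% and 5.81% of all regions tested. No Per1 promoter region was called.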
